A study of Mus musculus with 6 samples.

Results

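The 10 genes described here encode the core of Polycomb repressive complex 2 (Ezh2, Ezh1, Eed and Suz12), the DNA methyltransferases Dnmt1 and Dnmt3a, the cofactors Uhrf1 and Hells, and the enzymes Tet2 and Tet3, which oxidise methylated cytosine. They were taken by gene symbol from a table of 49997 genes. All 10 were in the table, and all 10 passed the count filter, which left 7792 genes. Uhrf1 was the 1 gene of the 10 that passed the test between the genotypes, with a mean level in ΔrsCBE of 0.607 times that in WT. The 4 core genes of the Polycomb complex, both methyltransferases and both Tet genes did not pass it.

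Polycomb repressive complex 2 places a repressive methyl mark on histone H3: Ezh2 and its paralog Ezh1 are alternative catalytic subunits, and Eed and Suz12 are needed for their activity. DNA methylation is copied after replication by Dnmt1, which Uhrf1 brings to hemimethylated DNA, and Hells is a remodelling ATPase that helps methylation reach compact chromatin. Dnmt3a places methyl groups at new sites, and Tet enzymes start their removal. In early B cells, Ezh2 is known for its role in heavy chain gene rearrangement, and Tet2 and Tet3 for the demethylation and opening of light chain enhancers.

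RNA was profiled by total RNA sequencing in small pre-B cells sorted from mouse bone marrow, with 3 libraries from WT mice and 3 from mice of the genotype labelled rsCBE, called ΔrsCBE in the series' design. All mice were C57BL/6 and 6 to 12 weeks old. The prefix Δ marks a deletion, the labels do not state its interval, and they do not say whether a library held 1 animal or a pool, so p-values measure the spread between these libraries, which may in part be technical. The study asked how chromatin topology set by the protein CTCF bears on receptor editing, in which a B cell exchanges its light chain by renewed rearrangement.

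Total counts ranged from 428106 to 1300805 per library, so that 3 counts corresponded to 2.32 to 7.17 CPM (counts scaled by library total and TMM factor, edgeR's cpm). Values of single libraries are given throughout in the order of replicates 1, 2 and 3. The counts behind each of the 10 genes ranged from 25 to 693 per library. All 10 pre-B markers examined had counts, among them Rag1 at 2515 to 3710 CPM and Pax5 at 2742 to 3557 CPM. Markers of other lineages were near 0: 5 of 6 erythroid, 5 of 7 T and NK cell and 2 of 3 megakaryocyte genes had no count in any library. Of 7 myeloid markers, 2 had no count, and Itgam made up most of their summed level of 51.7 to 81.2 CPM. ΔrsCBE replicates 2 and 3 had the female pattern, with 1603 and 1430 counts of Xist and no count of the 4 Y-linked genes examined, and the other 4 libraries had the male pattern. The genotypes can therefore be compared at like sex only within the male pattern, as 3 libraries against 1.

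The genotypes also differed in transcripts of dividing cells, given here since Uhrf1, Dnmt1, Hells and Ezh2 are known to be transcribed most in proliferating cells. The summed level of 26 genes of G2 and mitosis was 6868, 7736 and 7281 CPM in the 3 WT libraries and 2913, 4553 and 2825 CPM in the 3 ΔrsCBE libraries. Of the 24 that were tested, 20 fell in ΔrsCBE at an edgeR adjusted p under 0.05 and 0 rose at it. Over all tested genes, 1.49% passed that threshold with a lower level. All 24 had a log2 fold change below 0. Their median log2 fold change was -1.195, against 0.01 over all 7792 genes. The count of 20 past the threshold became 13 without WT replicate 3 and 13 with the sex pattern as a covariate. Mki67, a mark of cycling cells, had 3380, 3663 and 3390 CPM in the 3 WT libraries against 1489, 2355 and 1480 CPM in the 3 ΔrsCBE libraries, and Top2a 957, 1197 and 1084 CPM against 405, 640 and 364 CPM. Both fell (edgeR adjusted p = 0.0100 and 0.00715), but neither call held with the sex pattern as a covariate (edgeR adjusted p = 0.0931 and 0.123) or without ΔrsCBE replicate 1 (edgeR adjusted p = 0.0870 for each), and that of Mki67 was also lost without WT replicate 2 (edgeR adjusted p = 0.0859). Of 26 S phase genes, 22 were tested and 1 fell past the threshold, the ribonucleotide reductase subunit Rrm2, with a median over the 22 of -0.47. Of the 22, 19 had a log2 fold change below 0 and 3 above 0, where 48.2% of all tested genes were below 0. An unadjusted edgeR p under 0.05 was reached by 12 of the 22, all lower in ΔrsCBE. Over all tested genes, 6.02% reached it with a lower level. The Rrm2 call was lost with the sex pattern as a covariate (edgeR adjusted p = 0.112), without WT replicate 3 (edgeR adjusted p = 0.0713) and without ΔrsCBE replicate 3 (edgeR adjusted p = 0.0928). The replication clamp gene Pcna, at 39.5 to 43.0 CPM in WT and 25.8 to 37.2 CPM in ΔrsCBE, did not pass (edgeR adjusted p = 0.667). The 26 S phase genes summed to 1684 to 1859 CPM in WT and 1022 to 1461 CPM in ΔrsCBE. In sorted bulk samples, fewer cells of a type and less RNA per cell cannot be told apart. The part of these transcripts in the results below was not tested.

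The promoters of the 2 genes past the threshold among the 10 and their partner genes, Uhrf1 and the histone-binding subunit Rbbp4, are shown because they are the sequences next to the transcripts that changed. The sequences are from RefSeq (GRCm38.p6), read 5′ to 3′ on the gene's strand and limited to bases before the start that lie in no annotated exon. Capitals mark the letters CCAAT or its reverse complement ATTGG, the box bound by the factor NF-Y.
Uhrf1, first start, plus strand, chr17:56303087-56303320: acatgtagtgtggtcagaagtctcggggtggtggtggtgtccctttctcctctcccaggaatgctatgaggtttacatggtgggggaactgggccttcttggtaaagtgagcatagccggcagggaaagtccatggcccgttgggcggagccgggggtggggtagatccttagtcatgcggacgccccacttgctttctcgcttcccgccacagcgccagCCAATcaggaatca
Uhrf1, second start, plus strand, chr17:56304063-56304312: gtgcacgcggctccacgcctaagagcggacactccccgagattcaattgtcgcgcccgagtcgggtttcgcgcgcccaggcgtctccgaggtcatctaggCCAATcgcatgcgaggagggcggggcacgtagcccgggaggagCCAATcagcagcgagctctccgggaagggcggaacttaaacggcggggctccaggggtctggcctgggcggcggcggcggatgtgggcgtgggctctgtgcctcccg
Rbbp4, minus strand, chr4:129335371-129335620: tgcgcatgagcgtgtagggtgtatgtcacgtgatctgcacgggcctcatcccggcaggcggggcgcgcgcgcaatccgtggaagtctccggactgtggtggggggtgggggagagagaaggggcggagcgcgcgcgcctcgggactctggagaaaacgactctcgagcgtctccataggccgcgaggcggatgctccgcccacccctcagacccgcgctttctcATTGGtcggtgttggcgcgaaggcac
Within 250 bases before a start, CCAAT was found on either strand at 5 of the 10 genes (Ezh2, Tet3, Dnmt1, Suz12 and Uhrf1) and in 33.8% of the 32851 promoters of the table. TTTCCCGC, a form of the E2F site, was found on either strand at Suz12 and Hells and in 0.895% of all promoters, and another form, TTTGGCGC, at 0 of the 10 genes and in 0.417%. CGCG was found at 9 of the 10 genes, all but Eed, and in 33.8% of all promoters. Counted by window, as in those shares, CCAAT was in 7 and CGCG in 11 of the 15 windows of the 10 genes. TTTGAA, a form of the cell cycle homology region, was found on either strand at Eed, Dnmt1 and Suz12 and in 16% of all promoters. The 250 bases before the 15 annotated starts held 2 to 51 CpG dinucleotides, 14 of the 15 windows being above the median of 6 over all promoters. The exception was the most upstream start of Dnmt1, and the highest number belonged to Tet2.

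Uhrf1 had the largest difference between the genotypes among the 10 genes. The gene (chromosome 17, 56303321 to 56323486, plus strand, GENCODE M21 on GRCm38) has no annotated gene on the opposite strand. Its level was 265, 205 and 194 CPM in the 3 WT libraries and 129, 168 and 107 CPM in the 3 ΔrsCBE libraries. Every ΔrsCBE library lay below every WT library, the nearest pair being WT replicate 3 and ΔrsCBE replicate 2. The means were 222 ± 38.4 CPM and 135 ± 31.0 CPM (SD, n = 3), a log2 fold change of -0.70 ± 0.17 (SE) with a 95% interval from -1.04 to -0.36 (edgeR adjusted p = 0.0214). Of the 10 genes, 1 thus passed the threshold, and it was lower in ΔrsCBE. Over all 7792 tested genes 1.69% passed it, 1.49% with a lower level in ΔrsCBE.

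The call for Uhrf1 rested in part on single libraries, while its direction did not change in any alternative tried. Without WT replicate 1 the log2 fold change was -0.55 (edgeR adjusted p = 0.191), and without ΔrsCBE replicate 3 it was -0.57 (edgeR adjusted p = 0.234). Within the male-pattern libraries it was -0.77 (edgeR adjusted p = 0.0190), and with the sex pattern as a covariate it was -0.77 (edgeR adjusted p = 0.121). Both of these rest on ΔrsCBE replicate 1, the sole ΔrsCBE library of that pattern, which is assumed to vary like the WT libraries. Uhrf1's paralog Uhrf2, which has a similar domain make-up, had 117, 112 and 120 CPM in WT and 62.5, 87.6 and 111 CPM in the 3 ΔrsCBE libraries. The Uhrf2 ranges did not overlap, but ΔrsCBE replicate 3 was close to WT, and the log2 fold change of -0.43 did not pass the threshold (edgeR adjusted p = 0.392). Within the male-pattern libraries Uhrf2 was past it at -0.90 (edgeR adjusted p = 0.0328).

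**Figure D1:**
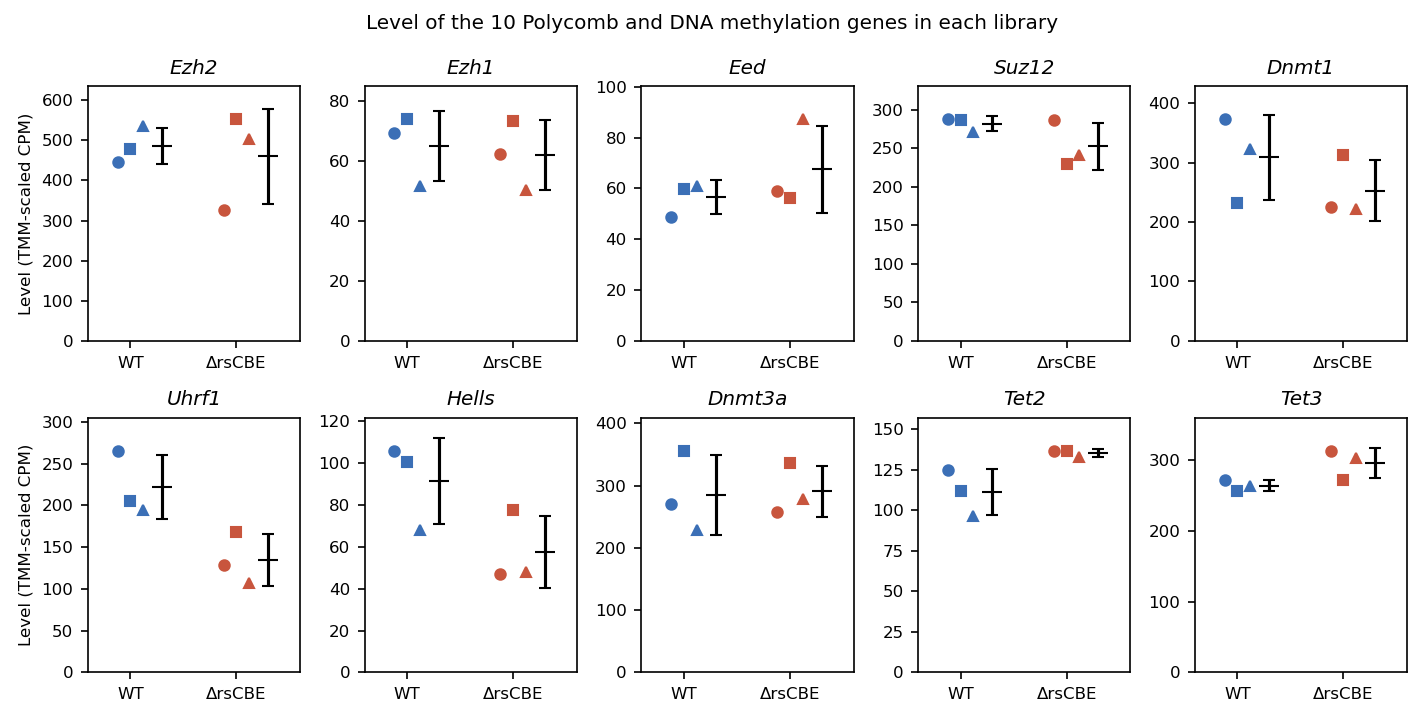
Level of each of the 10 genes in TMM-scaled CPM (vertical axes from 0) in WT (blue) and ΔrsCBE (red) libraries, with circles, squares and triangles for replicates 1, 2 and 3 and black bars for mean ± SD (n = 3). The 3 ΔrsCBE points of Uhrf1 lie between 107 and 168 CPM, below the WT points at 194 to 265 CPM, while the genotypes overlap for Ezh2, Ezh1, Eed, Suz12, Dnmt1, Hells and Dnmt3a.

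Hells and Dnmt1, which act with Uhrf1 in keeping methylation, had lower means in ΔrsCBE, but neither passed the threshold. Hells had 106, 100 and 68.0 CPM in the 3 WT libraries and 47.2, 77.5 and 47.9 CPM in the 3 ΔrsCBE libraries. ΔrsCBE replicate 2 lay above WT replicate 3, so the groups overlapped. The means of Hells were 91.4 ± 20.5 and 57.5 ± 17.3 CPM (SD, n = 3), a log2 fold change of -0.59 ± 0.22 (SE) and an interval from -1.05 to -0.13 (unadjusted p = 0.0143, edgeR adjusted p = 0.283). Without ΔrsCBE replicate 2 it was -0.88 and past the threshold (edgeR adjusted p = 0.0336).

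Dnmt1, the enzyme that copies methylation, had 373, 232 and 323 CPM in the 3 WT libraries and 225, 312 and 221 CPM in the 3 ΔrsCBE libraries. WT replicate 2 lay among the low libraries and ΔrsCBE replicate 2 among the high ones. The log2 fold change of Dnmt1 was -0.30 ± 0.16 (SE) and an interval from -0.63 to 0.02 (edgeR adjusted p = 0.537). The intervals of Uhrf1, Hells and Dnmt1 overlapped, and a difference in response between them was not tested.

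**Figure D2:**
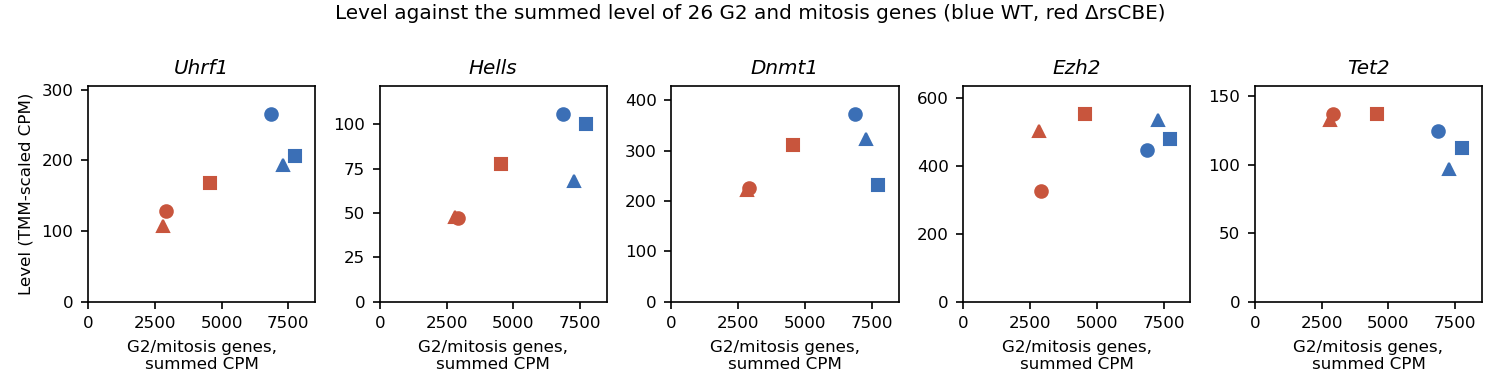
Level of 5 genes (vertical axes, TMM-scaled CPM) against the summed CPM of 26 G2 and mitosis genes (horizontal axes), 1 point per library, WT blue and ΔrsCBE red, with circles, squares and triangles for replicates 1, 2 and 3. ΔrsCBE replicate 2 has the highest summed level of the 3 ΔrsCBE libraries (4553 CPM) and the highest Uhrf1, Hells, Dnmt1 and Ezh2 of them. WT replicate 2, with the highest sum of all (7736 CPM), has the lowest Dnmt1 of the WT libraries. WT replicate 1 has the lowest WT sum (6868 CPM) and the lowest WT Ezh2, but the highest WT Uhrf1, Hells and Dnmt1. ΔrsCBE replicate 3 has the lowest sum of all (2825 CPM), with Ezh2 at 503 CPM, above WT replicates 1 and 2.

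Among the core genes of the Polycomb complex, Ezh2 varied most between the ΔrsCBE libraries. It had 447, 478 and 535 CPM in the 3 WT libraries and 327, 553 and 503 CPM in the 3 ΔrsCBE libraries. ΔrsCBE replicate 1 was the lowest of all 6 libraries and ΔrsCBE replicate 2 the highest. The log2 fold change over all libraries was -0.08 ± 0.15 (SE) and an interval from -0.40 to 0.23 (edgeR adjusted p = 0.919). Within the male-pattern libraries, where ΔrsCBE replicate 1 stands alone, Ezh2 was lower and past the threshold at -0.58 (edgeR adjusted p = 0.0226). Without that library it was 0.11 (edgeR adjusted p = 0.774), and without WT replicate 3 it was 0.0027 (edgeR adjusted p = 0.999), so the sign for Ezh2 changed with either library left out.

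Suz12, the scaffold subunit, had 287, 287 and 270 CPM in the 3 WT libraries and 287, 229 and 241 CPM in the 3 ΔrsCBE libraries. Its log2 fold change was -0.15 ± 0.13 (SE) and an interval from -0.41 to 0.11 (edgeR adjusted p = 0.764). ΔrsCBE replicates 2 and 3 were below all WT libraries and ΔrsCBE replicate 1 was within the WT range. Eed, which binds the methyl mark, had 49.0, 59.7 and 61.0 CPM in the 3 WT libraries and 59.0, 56.4 and 87.2 CPM in the 3 ΔrsCBE libraries. The log2 fold change of Eed was 0.24 with an interval from -0.21 to 0.68 (edgeR adjusted p = 0.788), and ΔrsCBE replicate 3 alone lay above WT. Ezh1, the catalytic subunit known for its expression in resting cells, spanned 51.7 to 74.1 CPM in WT and 50.4 to 73.5 CPM in ΔrsCBE. Its log2 fold change was 0.0021 ± 0.21 (SE) and an interval from -0.42 to 0.43 (edgeR adjusted p = 0.999).

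Dnmt3a, Tet2 and Tet3 had log2 fold changes above 0, and none of the 3 passed the threshold. Dnmt3a had 270, 356 and 229 CPM in the 3 WT libraries and 258, 336 and 278 CPM in the 3 ΔrsCBE libraries, with a log2 fold change of 0.07 and an interval from -0.23 to 0.37 (edgeR adjusted p = 0.936). All ΔrsCBE values of Dnmt3a lay inside the WT range. Tet2 had 125, 112 and 96.5 CPM in the 3 WT libraries and 136.9, 136.9 and 132.7 CPM in the 3 ΔrsCBE libraries. The ΔrsCBE libraries were close to each other and all above WT, and the log2 fold change of 0.31 ± 0.16 (SE), with an interval from -0.02 to 0.64, did not pass the threshold (edgeR adjusted p = 0.528). Tet3 had 271.7, 255.6 and 262.6 CPM in the 3 WT libraries and 312.6, 271.7 and 302.3 CPM in the 3 ΔrsCBE libraries. WT replicate 1 and ΔrsCBE replicate 2 were equal to within 1 CPM, and the log2 fold change was 0.16 with an interval from -0.08 to 0.41 (edgeR adjusted p = 0.718). The ranges of the genotypes were thus apart for Uhrf1 on the lower side and for Tet2 and, by that small gap, Tet3 on the higher side. Over all tested genes such ranges occurred in 8.95% on the lower and 7.24% on the higher side.

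**Figure D3:**
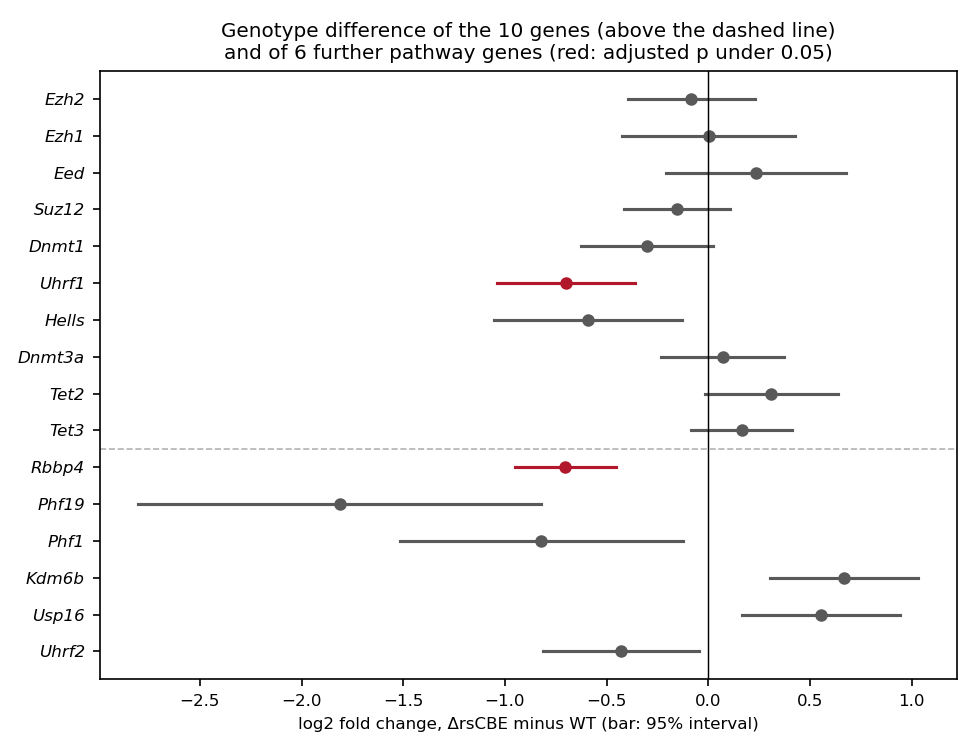
log2 fold change (ΔrsCBE minus WT, horizontal axis) with its 95% interval for the 10 genes and, under the dashed line, for 6 further pathway genes. The 6 are a selection from the partner lists, with no gene of Polycomb repressive complex 1. Scmh1 and Ring1 of that complex, which had an unadjusted edgeR p under 0.05, are not shown. Red marks an edgeR adjusted p under 0.05, which Uhrf1 (-0.70) and Rbbp4 (-0.70) reached; the intervals of Ezh2, Ezh1, Eed, Suz12, Dnmt1, Dnmt3a, Tet2 and Tet3 include 0.

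As a set, the 10 genes were divided: 5 had a log2 fold change below 0 and 5 above 0, where 48.2% of all tested genes were below 0, and the median was -0.04 against 0.01 over all tested genes. An unadjusted p under 0.05 was reached by 2 of them, Uhrf1 and Hells, both lower, and by 10.2% of all tested genes, 6.02% lower and 4.22% higher. The ratios of related enzymes within a library overlapped between the genotypes for each of 3 pairs. The log2 ratio of Ezh2 to Ezh1 was 2.92 ± 0.39 in WT and 2.87 ± 0.47 in ΔrsCBE (SD, n = 3, exact two-sided permutation p = 0.9). The log2 ratio of Tet2 to Tet3 was -1.25 ± 0.17 and -1.12 ± 0.12 (exact permutation p = 0.6), and that of Dnmt1 to Dnmt3a was 0.11 ± 0.64 and -0.21 ± 0.11 (exact permutation p = 0.4). Adjusted over these 3 ratios each p was 0.9, and 3 libraries against 3 cannot give an exact p below 0.1.

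Levels of different genes were compared per kilobase of merged exons of GENCODE M21. In WT, Ezh2 stood highest at 72.9 ± 6.70 CPM per kb and Tet2 lowest at 6.59 ± 0.839 CPM per kb (SD, n = 3). Suz12 (56.9), Uhrf1 (52.0) and Dnmt1 (41.9 CPM per kb) followed Ezh2, then came Dnmt3a (17.1), Tet3 (15.8), Eed (14.8), Hells (12.7) and Ezh1 (8.75 CPM per kb). Between neighbours in this WT order the library ranges were apart only from Ezh2 to Suz12 and from Dnmt1 to Dnmt3a. In ΔrsCBE, Uhrf1 stood at 31.6 ± 7.28 CPM per kb, with a range of 25.1 to 39.5 that was below that of Suz12, 46.4 to 58.0, whereas in WT the ranges of Uhrf1 and Suz12 overlapped. Merged exons of Dnmt3a, Tet2 and Tet3 exceed 16 kb, which lowers their values if shorter transcripts are used in these cells. Of the 10 genes, 6 overlap an annotated gene on the opposite strand. Among these partners E230029C05Rik, opposite Eed, had 2 counts over all libraries. No count was found under the symbols of the others, and whether each symbol was in the count table was not checked. The strand setting of the counting is not given in the sources used here.

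The further genes of the Polycomb pathway were read from lists of partner proteins. Among 9 genes of accessory subunits, 8 were tested. Of these, 1 fell past the threshold, Rbbp4, and 0 rose past it, where 1.49% of all tested genes passed with a lower level. The median log2 fold change of the 8 was -0.23, with 6 below 0 and 2 above 0, where 48.2% of all tested genes were below 0. An unadjusted edgeR p under 0.05 was reached by 3 of the 8, all lower. Over all tested genes, 6.02% reached it with a lower level. Rbbp4 (chromosome 4, 129307100 to 129335370, minus strand) encodes a histone-binding protein that is also part of chromatin assembly factor 1 and of histone deacetylase complexes. It had 332, 375 and 339 CPM in the 3 WT libraries and 221, 208 and 210 CPM in the 3 ΔrsCBE libraries. All ΔrsCBE libraries were well below all WT libraries, with means of 349 ± 23.2 and 213 ± 6.63 CPM (SD, n = 3) and a log2 fold change of -0.70 ± 0.12 (SE) (edgeR adjusted p = 0.00111). Rbbp4 passed the threshold in each of the 15 alternatives tried, with values from -0.73 to -0.65. Its close paralog Rbbp7 is present in the same complexes and had 36.3 to 69.3 CPM in WT and 35.6 to 54.3 CPM in ΔrsCBE (log2 fold change -0.26, edgeR adjusted p = 0.793).

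Phf19 and Phf1, which bring the complex to chromatin, were low. Phf19 had 15.8, 16.7 and 16.2 CPM in WT and 4.72, 6.04 and 2.46 CPM in the 3 ΔrsCBE libraries, on 50 counts in all. The ranges of Phf19 were apart, and the log2 fold change of -1.81 ± 0.48 (SE) missed the threshold by a small margin (edgeR adjusted p = 0.0517). Phf1 had 23.9 to 28.4 CPM in WT and 9.44 to 19.7 CPM in ΔrsCBE, a log2 difference of -0.82 (edgeR adjusted p = 0.355). Mtf2, the third subunit of this family, had a log2 fold change of -0.18, and Jarid2 of the other subtype of the complex had 0.20 (edgeR adjusted p = 0.773 and 0.639).

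In the list of 24 genes of Polycomb repressive complex 1, which places ubiquitin on histone H2A, 21 were tested and 0 passed the threshold in edgeR's test. An unadjusted p under 0.05 was reached by 1 lower and 1 higher gene of the 21, and by 10.2% of all tested genes. The median log2 fold change was 0.11, with 14 genes above 0. The lower gene was Scmh1, at 71.7 to 91.6 CPM in WT and 60.2 to 63.4 CPM in ΔrsCBE (log2 fold change -0.45, edgeR adjusted p = 0.357). The higher gene was Ring1, a catalytic subunit with 67 counts in all, at 3.16 to 12.4 CPM in WT and 14.7 to 21.2 CPM in ΔrsCBE (log2 fold change 0.99, edgeR adjusted p = 0.409).

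Enzymes that remove the marks of the Polycomb complexes, with the Asxl1, Asxl2 and Asxl3 cofactors of the deubiquitinase Bap1, formed a list of 8 genes, of which 7 were tested and 0 passed the threshold in edgeR's test, with a median log2 fold change of 0.06. An unadjusted p under 0.05 was reached by 2 of the 7, both higher, where 4.22% of all tested genes reached it with a higher level. Kdm6b, a histone H3 demethylase, had 160, 112 and 127 CPM in the 3 WT libraries and 242, 152 and 247 CPM in the 3 ΔrsCBE libraries. ΔrsCBE replicate 2 lay within the WT range, and the log2 fold change of 0.67 ± 0.18 (SE) was just short of the threshold (edgeR adjusted p = 0.0522). It passed in 6 of the 15 alternatives, among them the fit without ΔrsCBE replicate 2 (0.87, edgeR adjusted p = 0.000320). Usp16, a histone H2A deubiquitinase, had 50.5 to 69.3 CPM in WT and 86.6 to 100.3 CPM in ΔrsCBE, a log2 difference of 0.55 (edgeR adjusted p = 0.187). The X-linked demethylase Kdm6a had 93.2, 81.2 and 97.3 CPM in the 3 WT libraries and 67.2, 96.6 and 121.7 CPM in the 3 ΔrsCBE libraries. Male-pattern ΔrsCBE replicate 1 lay below every WT library, and female-pattern replicate 3 lay above them. The log2 fold change of Kdm6a, 0.05 (edgeR adjusted p = 0.976), thus mixes genotype with sex pattern. Mysm1, another H2A deubiquitinase, was at 0.24 on the log2 scale (edgeR adjusted p = 0.623).

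The other genes of DNA methylation, its readers and its removal numbered 22, of which 18 were tested and 0 passed the threshold in edgeR's test. The 1 gene of the 18 with an unadjusted p under 0.05 was Uhrf2, where 10.2% of all tested genes reached it. The median log2 fold change was -0.04. The methyl-CpG readers Zbtb38 and Zbtb33 had log2 fold changes of 0.50 and -0.35 (edgeR adjusted p = 0.630 and 0.631). Tet1 was low, at 19.0 to 35.5 CPM in WT and 17.2 to 27.1 CPM in ΔrsCBE. Dnmt3b, the other enzyme for new sites, was below the count filter with 49 counts in all, at 11.6 to 12.6 CPM in WT and 7.05 to 8.60 CPM in ΔrsCBE, and Dnmt3l had no count.

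**Figure D4:**
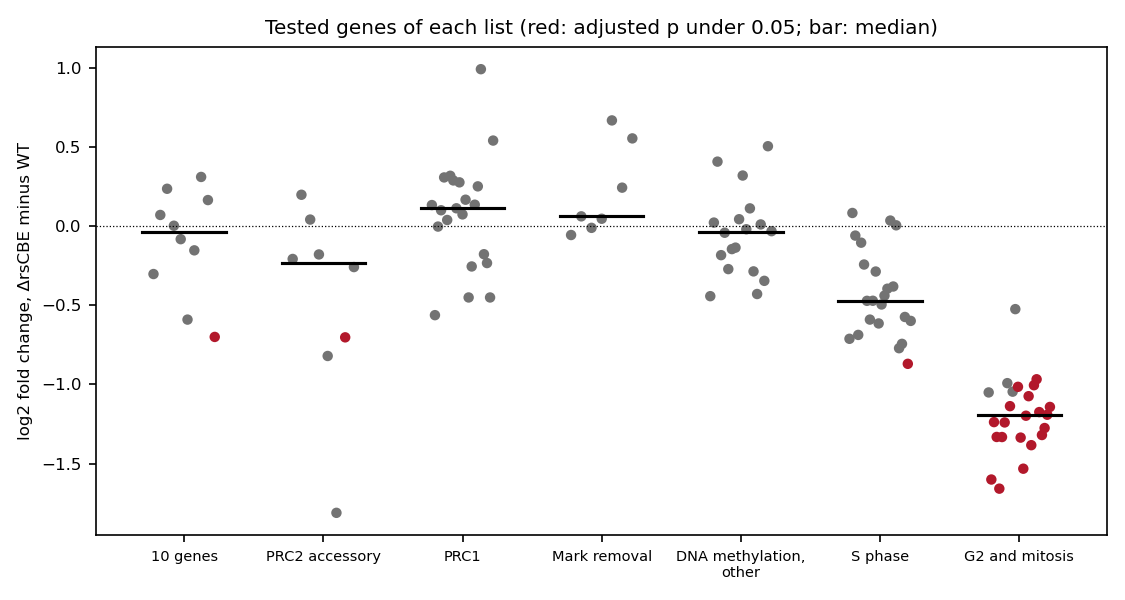
log2 fold change (ΔrsCBE minus WT, vertical axis) of every tested gene of 7 lists, 1 point per gene, with the median as a bar and edgeR adjusted p under 0.05 in red. The medians of the 10 genes (-0.04), PRC1 (0.11), mark removal (0.06) and other DNA methylation genes (-0.04) lie near 0, and those of the S phase (-0.47) and G2 and mitosis (-1.195) lists lie below it.

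Genes that these systems are known to silence in somatic cells were mostly without counts. So were most genes of the table: 17435 of 49997 had a count in at least 1 library. Of 20 Polycomb targets, 12 had no count in any library, among them Cdkn2a, and 1 was tested, Igf2bp3, which varied from 3.09 to 26.3 CPM within WT (log2 fold change -0.94, edgeR adjusted p = 0.721). Of 16 germline genes held silent by DNA methylation, 12 had no count and 1 was tested. That gene, the meiotic cohesin subunit Stag3, had 23.7, 21.5 and 23.2 CPM in WT and 5.90, 6.04 and 0 CPM in the 3 ΔrsCBE libraries. It was lower in every ΔrsCBE library, a log2 difference of -2.43 (edgeR adjusted p = 0.00666), on 65 counts in all. The call for Stag3 was lost without WT replicate 3 (edgeR adjusted p = 0.125) and without ΔrsCBE replicate 3 (edgeR adjusted p = 0.0589), and with the sex pattern as a covariate (edgeR adjusted p = 0.243) or within the male-pattern libraries (edgeR adjusted p = 0.0995). Of the other germline genes with counts, all below the filter, Brdt had a mean of 10.5 CPM in WT and 13.5 CPM in ΔrsCBE, Tdrkh 8.92 and 2.78 CPM, and Slc25a31 had 1 count in all.

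The genes whose pattern over the 6 libraries was most like that of Uhrf1 were found by Pearson's r of log2 CPM among all tested genes outside the 10, as a description. They were Elovl5 (r = 0.990), E2f8 (0.988), Pomgnt1 (0.987), H4c9 (0.985) and Nup107 (0.985). E2f8 is an E2F family repressor of the cell cycle. Since these genes were chosen for likeness to Uhrf1 over the same libraries, their own levels by genotype and genotype tests are not given. The counts of H4c9 are uncertain, since histone H4 genes are near-identical copies. The 6 points share their genotype grouping and library depth, and with 7792 genes and 6 points high values of r occur for unrelated genes as well.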

How the data were processed

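Read counts for 6 libraries, as deposited, were whole numbers with 1 row per gene symbol and no normalization. Per the submitters' processing notes, the build was mm10 and the tools included Trim Galore 0.6.10, STAR 2.7.11, HTSeq and DESeq2; per the labels' protocols, ribosomal RNA was depleted and a stranded total RNA kit was used. The annotation, filters and strand setting of the counting are not given in the sources used here. Columns were matched to samples by library name, and groups follow the title labels.

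The test was run in R 4.3.3 (edgeR 4.0.16). Counts passed filterByExpr (minimum count 10), were scaled by TMM, fitted with genotype as the sole factor by glmQLFit (robust) and tested by glmQLFTest, with Benjamini-Hochberg adjustment over all 7792 genes and a threshold of 0.05. The standard error was derived from the F statistic, and 95% intervals from it. CPM used the total counts times the TMM factor, and log2 CPM a prior count of 2. Floors of 3 counts cover counting error only. The fit was tested on simulated data. No 2 libraries of a genotype agreed within sampling noise (chi-square per degree of freedom 1.78 to 3.18). Alternatives were DESeq2 1.42.0, other scalings, filters and thresholds, a replicate block, a sex covariate and leaving out each library. Exact permutation tests used scipy 1.17.1.

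The members, lists and naming rule were chosen with earlier results of these data known. The text names the 10 genes, per partner list those past the threshold or the 3 with the smallest p (for the G2 and mitosis list, with 20 such genes, the count and median stand in for the names), Mki67, Top2a and Pcna, and the 5 genes most like Uhrf1. A gene that this rule names is not reported here. Rbbp7, Mtf2, Jarid2, Kdm6a, Asxl1, Asxl2, Asxl3, Brdt, Tdrkh, Slc25a31, Tet1, Dnmt3b, Dnmt3l and Cdkn2a were named in addition, after their values were seen. Coordinates are from GENCODE M21 and promoters from RefSeq, both on GRCm38, which is mm10. All 10 genes matched a promoter by symbol.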

Additional observations from a re-analysis of the deposited data

How the results depend on the processing

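The count of 132 genes past the threshold, 116 of them lower in ΔrsCBE, became 87 and 72 with the sex covariate; leaving out 1 library gave 59 to 187 and 52 to 153, lowest without WT replicate 3 and, for the total, also without ΔrsCBE replicate 3. The 20 genes of G2 and mitosis became 13 with the sex covariate and 13 to 22 with 1 library left out. Of the 10 genes, the 1 past the threshold became 0 with the sex covariate, where the ΔrsCBE effect rests on replicate 1, and 2 within the male-pattern libraries (Uhrf1 and Ezh2); leaving out 1 library gave 0 to 2. The count of further pathway genes, 1 (Rbbp4), became 2 without a count filter and with the replicate block (adding Kdm6b), 3 with the filter of CPM 1 in 3 libraries and 3 at a threshold of 0.1 (each adding Kdm6b and Phf19), and 3 within the male-pattern libraries (adding Kdm6b and Uhrf2); leaving out 1 library gave 1 to 2. The cause of these changes was not tested.

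Some log2 fold changes of genes that did not pass the threshold changed sign. Ezh1 had -0.019 with the DESeq2 Wald test, -0.067 with the replicate block and -0.19 to 0.12 with 1 library left out. Suz12 had 0.033 with the sex covariate and 0.034 within the male-pattern libraries. Dnmt3a had -0.094 and -0.092 in these and -0.087 to 0.24 with 1 library left out. Ezh2 had -0.24 to 0.11 with 1 library left out. Igf2bp3 had 0.00057 with the sex covariate. Uhrf1, Hells and Dnmt1 stayed below 0, and Tet2, Tet3 and Eed above 0, in all 15 alternatives. Deviations of libraries with the same replicate number were almost uncorrelated (r from 0.0091 to 0.020), and 1 of 3 WT libraries correlated best with its own number; the replicate block gave 136 genes.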
